A study of Homo sapiens with 6 samples.

Results

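The azurophil granule genes described here are MPO, ELANE, PRTN3, AZU1, CTSG, RNASE2, RNASE3 and SRGN, 8 genes chosen by symbol out of 60675 gene identifiers in the deposited tables, each with 1 identifier. They were followed in RNA pulled down with J2, an antibody that binds double-stranded RNA, from OCI-AML2, a human acute myeloid leukaemia cell line transduced with short hairpin RNAs. The SUPV3L1 knockdown group had 3 libraries, from cells with a hairpin against SUPV3L1 (SUV3, the helicase partner of polynucleotide phosphorylase in the mitochondrial matrix), and the PNPT1 knockdown group had 3 libraries, from cells with a hairpin against PNPT1 (polynucleotide phosphorylase, an exoribonuclease). The labels give neither the hairpin of a library nor whether the libraries came from separate cultures. Each library title carries its own number, whose meaning is not given, so libraries of a group may differ in hairpin. The p-values thus measure only the spread between these libraries, which may be technical. Every library analysed here is a pull-down from a knockdown, with neither unmodified cells nor input RNA beside it, so all comparisons are SUPV3L1 knockdown against PNPT1 knockdown. In such bulk libraries fewer cells that make an RNA, less of that RNA per cell and a weaker pull-down of it cannot be told apart.

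Azurophil granules are the first granules to form in the neutrophil lineage, at the promyelocyte stage. Many of their proteins, though not all, are made mainly in that window. The mRNAs of those proteins are widely used as markers of immature myeloid cells. Myeloperoxidase (MPO) makes hypochlorous acid, and neutrophil elastase (ELANE), proteinase 3 (PRTN3) and cathepsin G (CTSG) are serine proteases activated in the granule. Azurocidin (AZU1) is a relative of these proteases that has lost catalysis and kills bacteria by other means. RNASE2 and RNASE3 are secretory ribonucleases best known from eosinophils, as eosinophil-derived neurotoxin and eosinophil cationic protein, and serglycin (SRGN) is the proteoglycan core whose charged chains hold granule proteases in store.

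In the GENCODE 29 annotation on GRCh38, AZU1 (ENSG00000172232, chromosome 19, 825097 to 832018), PRTN3 (ENSG00000196415, chromosome 19, 840960 to 848175) and ELANE (ENSG00000197561, chromosome 19, 851014 to 856247) lie in a row on the plus strand, with 8941 bases between AZU1 and PRTN3 and 2838 bases between PRTN3 and ELANE. RNASE3 (ENSG00000169397, chromosome 14, 20891399 to 20892348) and RNASE2 (ENSG00000169385, chromosome 14, 20955452 to 20956436) are on the plus strand, 63103 bases apart, and CTSG (ENSG00000100448, chromosome 14, 24573522 to 24576260) is on the minus strand of the same chromosome. MPO (ENSG00000005381) is at chromosome 17, 58269856 to 58280935, minus strand, and SRGN (ENSG00000122862) at chromosome 10, 69088106 to 69104811, plus strand. All 8 are protein-coding. No other annotated gene overlaps any of them except a small RNA gene, RF00017, inside SRGN on the same strand, which had 15 to 95 counts per library.

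The 8 principal transcripts differ in base composition. The transcripts of AZU1, ELANE and PRTN3 are 67.5%, 66.8% and 66.1% G and C, those of MPO and CTSG 58.5% and 57.2%, those of RNASE3 and RNASE2 47.6% and 46.2%, and that of SRGN 38.1%. RNASE2 and RNASE3 are close paralogs: 3.26% of the 50-base windows of the RNASE2 transcript and 5.37% of those of RNASE3 also occur in another annotated transcript, against 0 windows for the other 6 genes. Counts of this pair could therefore lose reads that align to both.

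In CPM (counts scaled to library size), RNASE2, RNASE3 and CTSG were highest in replicate 2 within each knockdown, while AZU1 and PRTN3 were not. For AZU1 this depended on the scale: on deposited FPKM it too was highest in replicate 2 of each knockdown (253 and 248 FPKM). The promoter sequences below are shown because of that difference in CPM. They come from RefSeq on GRCh38.p14 and run 5′ to 3′ on the gene's strand, from 250 bases before the RefSeq start up to that start or to the first base of an annotated exon, which leaves 211 to 250 bases. Capitals mark matches, on either strand, to the letters TTGCNNAA (a C/EBP-like motif), GAGGAA (PU.1-like), AACTG (MYB-like) or TGTGGT (RUNX-like); no match overlapped a match of another motif. No promoter of MPO, ELANE or SRGN is printed.
RNASE2, chr14:20955237-20955451, plus strand: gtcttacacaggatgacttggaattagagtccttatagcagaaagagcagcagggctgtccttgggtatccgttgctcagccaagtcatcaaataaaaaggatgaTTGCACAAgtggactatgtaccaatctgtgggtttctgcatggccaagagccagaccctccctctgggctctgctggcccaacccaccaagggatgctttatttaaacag
RNASE3, chr14:20891135-20891384, plus strand: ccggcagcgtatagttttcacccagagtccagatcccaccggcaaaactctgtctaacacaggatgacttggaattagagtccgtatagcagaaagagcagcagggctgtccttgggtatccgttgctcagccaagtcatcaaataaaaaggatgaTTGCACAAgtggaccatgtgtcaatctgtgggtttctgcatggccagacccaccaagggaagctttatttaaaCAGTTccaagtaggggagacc
CTSG, chr14:24576261-24576500, minus strand: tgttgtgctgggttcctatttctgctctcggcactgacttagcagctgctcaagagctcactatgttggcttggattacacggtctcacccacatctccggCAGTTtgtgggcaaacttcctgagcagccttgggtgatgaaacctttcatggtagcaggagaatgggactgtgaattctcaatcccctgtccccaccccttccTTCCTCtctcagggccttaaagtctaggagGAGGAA
AZU1, chr19:827587-827835, plus strand: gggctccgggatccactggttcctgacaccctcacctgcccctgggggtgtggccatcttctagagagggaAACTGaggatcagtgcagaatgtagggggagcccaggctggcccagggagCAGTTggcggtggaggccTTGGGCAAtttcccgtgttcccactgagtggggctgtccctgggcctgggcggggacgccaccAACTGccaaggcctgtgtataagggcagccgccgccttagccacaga
PRTN3, chr19:840749-840959, plus strand: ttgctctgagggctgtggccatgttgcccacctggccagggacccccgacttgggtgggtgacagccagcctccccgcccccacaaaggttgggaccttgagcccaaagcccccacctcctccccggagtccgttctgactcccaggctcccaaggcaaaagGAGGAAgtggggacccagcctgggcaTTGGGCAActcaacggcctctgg

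The RNASE2 and RNASE3 promoters align over 158 positions, of which 151 are identical, and both hold the C/EBP-like match TTGCACAA in that stretch. AZU1 and PRTN3 each hold the match TTGGGCAA, which fits the motif on the opposite strand. TTGCNNAA was thus present in 4 of the 5 windows, against 9.05% of 35116 RefSeq promoters searched over 250 bases, though 2 of the 4 windows are the near-copies of RNASE2 and RNASE3. GAGGAA was present in CTSG and PRTN3 (23.6% of all promoters), AACTG in AZU1, CTSG and RNASE3 (34.1%), and TGTGGT in 0 of the 5 (11.0%). These matches describe letters and are not evidence that a factor binds there.

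Libraries held 9378264 to 11361371 counts assigned to genes in SUPV3L1 knockdown and 5852090 to 10464630 in PNPT1 knockdown. PNPT1 knockdown replicate 3 stood apart, with the fewest counts and genes (16620 genes with a count, against 20765 to 22393 in the other libraries). Certain clone-named genes took 37.7% of its counts, against 10.9% to 22.1% in the other libraries. Of its entries, 80.1% were alignments that were not unique, against 65.7% to 71.6% in the other libraries. The targeted RNAs did not pass the test between the groups: PNPT1 was at 36.3, 27.6 and 21.4 CPM (counts scaled to library size) in SUPV3L1 knockdown, against 7.66, 18.9 and 17.1 CPM in PNPT1 knockdown, and SUPV3L1 at 12.2, 12.3 and 9.42 CPM in SUPV3L1 knockdown and 11.5, 18.2 and 25.8 CPM in PNPT1 knockdown (adjusted p = 0.898 for each by edgeR's quasi-likelihood test, Benjamini-Hochberg over all genes tested). How far either RNA was lowered against unmodified cells was not analysed here. Mitochondrial genes took 33.6% to 42.0% of counts in SUPV3L1 knockdown and 11.3% to 26.6% in PNPT1 knockdown, and with scaling computed without mitochondrial and clone-named genes no sign among the 8 granule genes turned (their median log2 difference was 0.0958, against 0.10 with all genes). The 8 granule genes together took 0.134%, 0.218% and 0.167% of assigned counts in SUPV3L1 knockdown replicates 1, 2 and 3, and 0.126%, 0.175% and 0.198% in PNPT1 knockdown replicates 1, 2 and 3. The widest of the 95% binomial intervals of these shares (Wilson, counting error only), in PNPT1 knockdown replicate 3, was 0.195% to 0.202%. The libraries thus differ by more than counting error while the groups overlap. Much of the total was SRGN, with 0.0840%, 0.0858% and 0.0851% of counts in SUPV3L1 knockdown and 0.0515%, 0.0608% and 0.124% in PNPT1 knockdown.

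On FPKM, the deposited values scaled to gene length and depth, the granule genes ranged widely within a library. SRGN was the highest of the 8 in all 6 libraries, ranking 75 to 125 among all genes of a library, and MPO the lowest in all 6, ranking 9722 to 17801. AZU1, CTSG and RNASE2 ranked between 125 and 478, PRTN3 and ELANE between 404 and 2133, and RNASE3 between 1314 and 6172. The order of neighbours was not fixed: AZU1 lay above CTSG in 5 of 6 libraries, CTSG above RNASE2 in 5 of 6, and PRTN3 above ELANE in 3 of 6. SUPV3L1 knockdown replicate 1 was the exception in the first 2 pairs, with RNASE2 at 122 FPKM, CTSG at 81.9 FPKM and AZU1 at 70.9 FPKM.

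**Figure D1:**
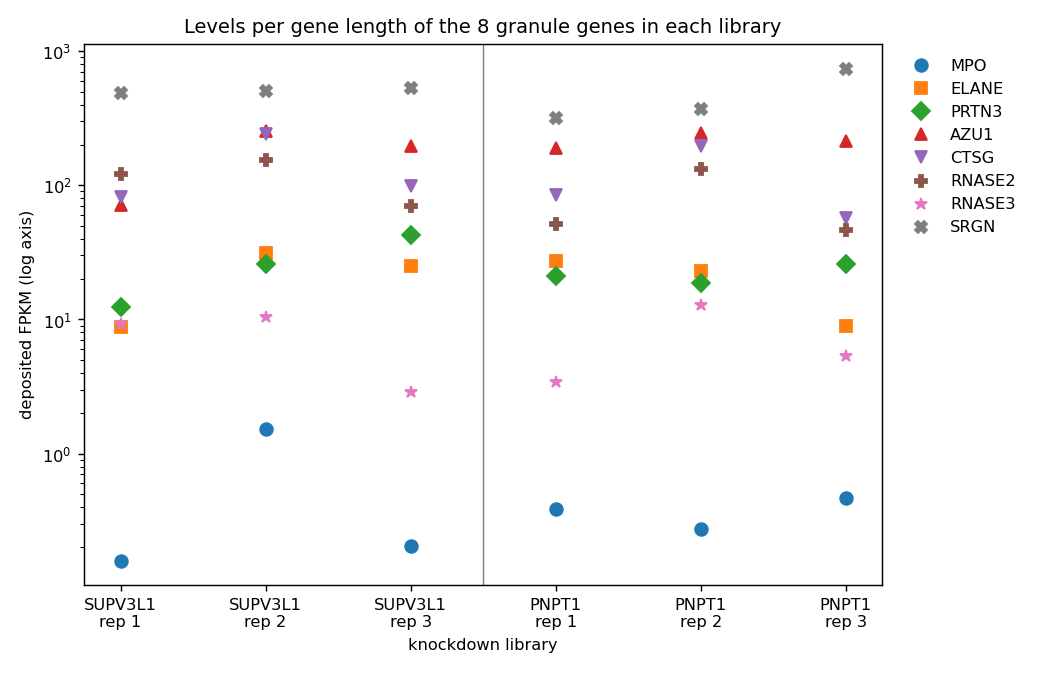
Deposited FPKM (log axis) of the 8 granule genes in the 3 SUPV3L1 knockdown and the 3 PNPT1 knockdown libraries. SRGN is the highest and MPO the lowest in all 6 libraries, and the genes between them change places.

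MPO, the defining azurophil enzyme, was near the filter's minimum count of 10 in all libraries but SUPV3L1 knockdown replicate 2. MPO had 10, 75 and 10 counts in SUPV3L1 knockdown replicates 1, 2 and 3. In PNPT1 knockdown replicates 1, 2 and 3 it had 14, 13 and 13 counts. In FPKM it was at 0.159, 1.53 and 0.204 in SUPV3L1 knockdown and at 0.388, 0.274 and 0.464 in PNPT1 knockdown. SUPV3L1 knockdown replicate 2 stood alone above the other 5 libraries. AZU1 in the same libraries was at 70.9, 253 and 196 FPKM in SUPV3L1 knockdown and 189, 248 and 213 FPKM in PNPT1 knockdown, so MPO per length was 0.00104 to 0.00605 of AZU1. On the log2 scale MPO differed by 0.69 ± 0.88 between SUPV3L1 and PNPT1 knockdown (SE over 3 libraries each, positive where SUPV3L1 knockdown is higher), with a 95% interval of -1.26 to 2.64 and an adjusted p of 0.913 by edgeR's quasi-likelihood test. With SUPV3L1 knockdown replicate 2 left out, the difference was -0.97, and on deposited FPKM with a pseudocount of 0.1 it was 0.11 (limma).

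The question put to the 8 genes was whether their precipitated RNA differed between the knockdowns, and no member did beyond the spread between replicates. All 8 were kept by the filter on low counts. With p-values adjusted by Benjamini-Hochberg over 13275 genes, edgeR's quasi-likelihood test called 0 of the 8 (adjusted p of 0.898 to 0.981), against 0% of all genes tested, and DESeq2 called 0 of the 8, against 0.136% of all genes it tested. At an unadjusted p under 0.05 the edgeR fit had 0 of the 8, against 4.09% of all genes tested, 1.7% higher and 2.39% lower in SUPV3L1 knockdown. The groups overlapped for each of the 8 genes, where 8.56% of all genes tested had no overlap, 4.62% with SUPV3L1 knockdown higher and 3.94% with it lower. Of the 8, 5 had a log2 fold change above 0 and 3 below, with a median of 0.10, against 50.7% of all genes tested above 0 and a median of 0.01. On log2(FPKM + 0.1), 7 of the 8 were above 0, where the median of all genes was itself 0.17. Without SUPV3L1 knockdown replicate 2 the median of the 8 was -0.28, and 0.46 when SUPV3L1 knockdown replicate 1 was the library left out. The largest, for MPO and RNASE2, were 0.69 and 0.53, and the lowest, for AZU1, was -0.49. The 95% intervals of the 8 genes reached from -1.60 at the lowest, for AZU1, to 2.64 at the highest, for MPO, and each of the 8 intervals holds differences of 2-fold or more in at least 1 direction.

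**Figure D2:**
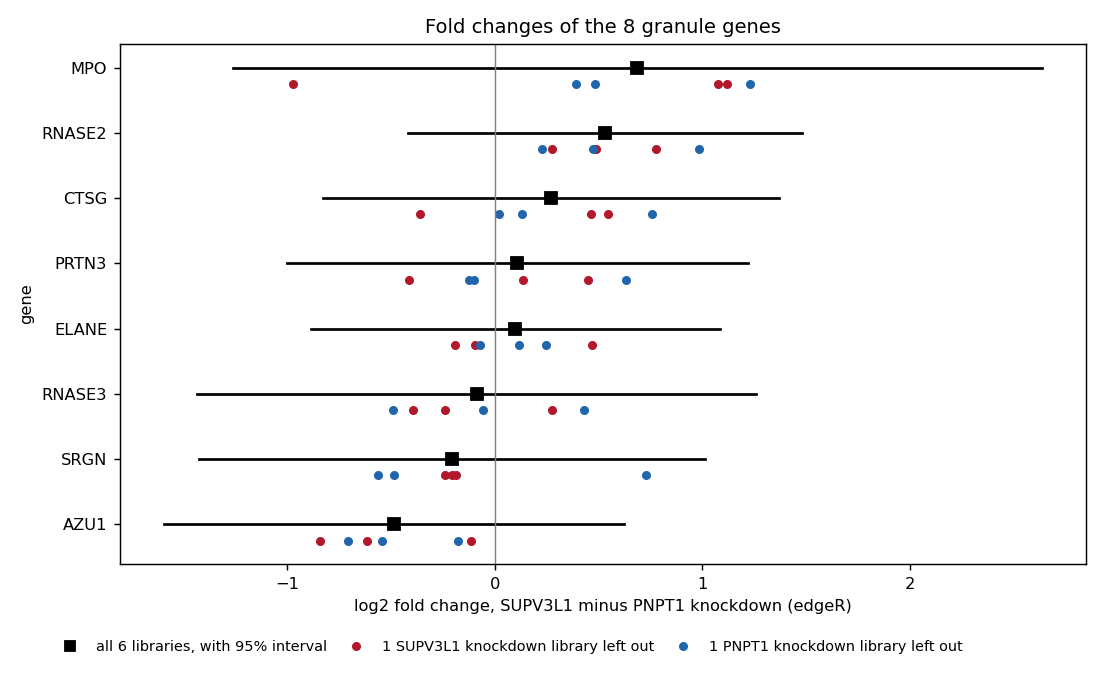
Log2 fold change of each granule gene, SUPV3L1 minus PNPT1 knockdown, with its 95% interval from edgeR over 6 libraries (squares, lines) and the values with 1 library left out (dots, coloured by the knockdown of that library). The 8 intervals include 0, and leaving out a library moves 6 of the 8 genes across 0.

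The proteases and azurocidin were compared first. AZU1 was at 161, 574 and 473 CPM in SUPV3L1 knockdown replicates 1, 2 and 3, against 383, 524 and 785 CPM in PNPT1 knockdown replicates 1, 2 and 3. SUPV3L1 knockdown replicate 1 was the lowest library, and the other 5 overlapped between groups. As a plain share of counts, AZU1 was lower in PNPT1 knockdown replicate 3 (0.0524%) than in PNPT1 knockdown replicate 2 (0.0573%). The log2 fold change was -0.49 ± 0.50 (SE), and its sign was the same under every alternative run, from -0.84 without SUPV3L1 knockdown replicate 2 to -0.12 without SUPV3L1 knockdown replicate 1.

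PRTN3 was at 17.9, 37.8 and 64.3 CPM in SUPV3L1 knockdown, against 26.3, 24.9 and 60.9 CPM in PNPT1 knockdown. Replicate 3 of each knockdown was the high library of its group, and SUPV3L1 knockdown replicate 1 the lowest of all. ELANE, next to it on chromosome 19, was at 11.6, 39.0 and 36.1 CPM in SUPV3L1 knockdown, against 32.2, 28.03 and 20.2 CPM in PNPT1 knockdown. Here too SUPV3L1 knockdown replicate 1 was the lowest library, but PNPT1 knockdown replicate 3 was low, not high. The ratio of PRTN3 to ELANE in FPKM, which does not depend on library scaling, was 1.42, 0.839 and 1.71 in SUPV3L1 knockdown and 0.773, 0.819 and 2.86 in PNPT1 knockdown. The log2 fold changes were 0.11 ± 0.50 for PRTN3 and 0.10 ± 0.45 for ELANE (SE), both with the opposite sign when certain single libraries were left out (lowest values -0.41 and -0.19).

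CTSG was at 145, 430 and 182 CPM in SUPV3L1 knockdown, against 130, 330 and 166 CPM in PNPT1 knockdown. Replicate 2 of each knockdown stood above the other 4 libraries, which lay between 130 and 182 CPM whichever gene had been knocked down. The log2 fold change was 0.27 ± 0.50 (SE), and -0.36 without SUPV3L1 knockdown replicate 2.

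**Figure D3:**
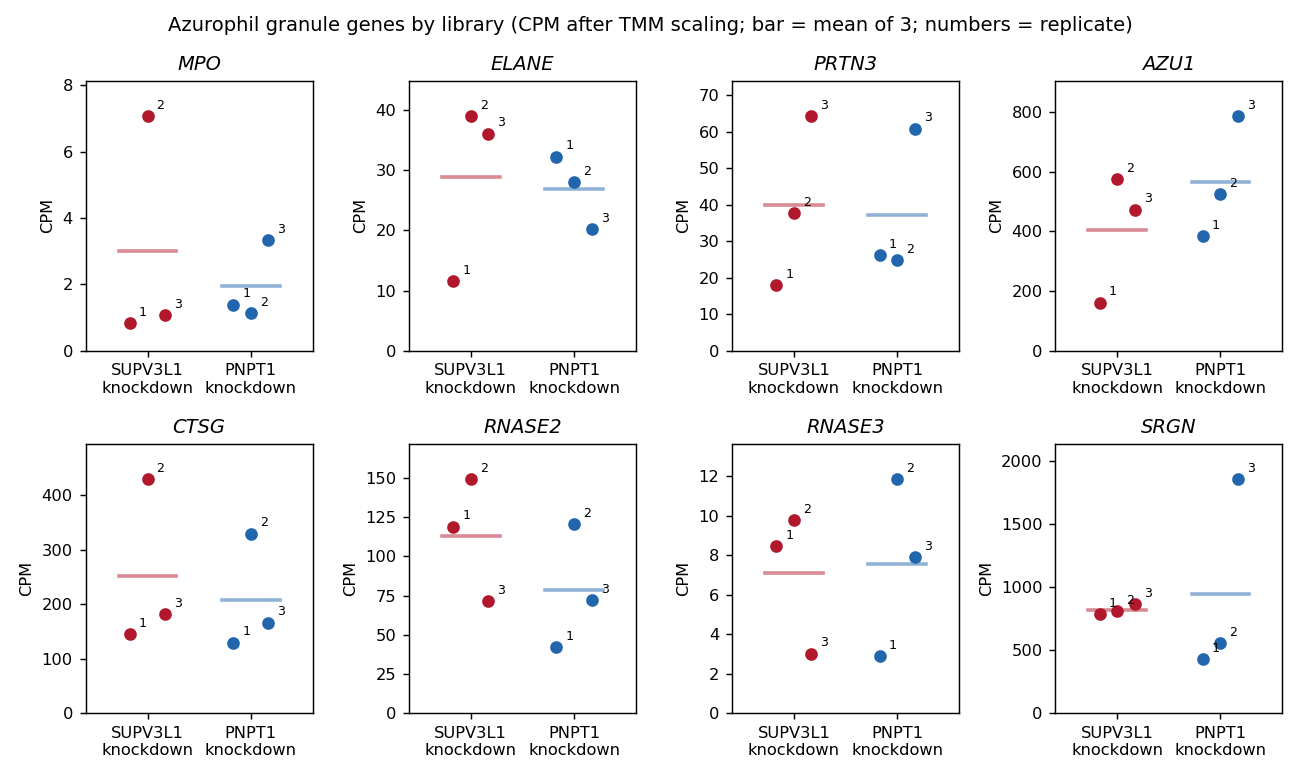
CPM after TMM scaling of each granule gene in 3 SUPV3L1 knockdown and 3 PNPT1 knockdown libraries (dots, numbered by replicate), with the mean of each group (bars). The groups overlap in each panel, and single libraries, such as SUPV3L1 knockdown replicate 2 for MPO and PNPT1 knockdown replicate 3 for SRGN, lie far above the rest.

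Of the ribonucleases, RNASE2 was at 119, 149 and 71.5 CPM in SUPV3L1 knockdown, against 42.1, 121 and 72.2 CPM in PNPT1 knockdown. SUPV3L1 knockdown replicates 1 and 2 and PNPT1 knockdown replicate 2 formed the high side. Its log2 fold change was 0.53 ± 0.43 (SE, adjusted p = 0.898 by the edgeR fit), the smallest p of the 8 genes (unadjusted p = 0.241). The value was above 0 under every alternative run, from 0.23 without PNPT1 knockdown replicate 1 to 0.98 without PNPT1 knockdown replicate 2, where the unadjusted p was 0.0414 (edgeR's quasi-likelihood test, adjusted p = 0.314). RNASE3 was at 8.47, 9.81 and 3.03 CPM in SUPV3L1 knockdown and 2.89, 11.9 and 7.93 CPM in PNPT1 knockdown, with 28 to 136 counts per library. The same 3 libraries were its highest. The ratio of RNASE2 to RNASE3 in FPKM was 13.2, 14.98 and 24.4 in SUPV3L1 knockdown and 15.1, 10.2 and 8.77 in PNPT1 knockdown. The log2 fold change of RNASE3 was -0.09 ± 0.61 (SE), and its sign turned without SUPV3L1 knockdown replicate 3 (0.28) or PNPT1 knockdown replicate 2 (0.43), and on deposited FPKM (0.0791 with a pseudocount of 0.1).

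SRGN was the most even member in SUPV3L1 knockdown, at 785, 810 and 865 CPM, and uneven in PNPT1 knockdown, at 428, 556 and 1856 CPM. PNPT1 knockdown replicate 3 was its highest library and PNPT1 knockdown replicates 1 and 2 were its lowest, with the SUPV3L1 knockdown libraries between. The TMM factor of PNPT1 knockdown replicate 3, 0.669, raises its CPM, but SRGN was highest there as a plain share of counts as well (0.124%, against 0.0840%, 0.0858% and 0.0851% in SUPV3L1 knockdown and 0.0515% and 0.0608% in the other PNPT1 knockdown replicates). In FPKM, SRGN was at 489, 509 and 527 in SUPV3L1 knockdown and 317, 372 and 742 in PNPT1 knockdown, and on that scale the sign of its difference turned (0.19 on log2(FPKM + 0.1), by limma). On counts the log2 fold change was -0.21 ± 0.55 (SE), and 0.73 without PNPT1 knockdown replicate 3, with an unadjusted p of 0.0283 (edgeR's quasi-likelihood test, adjusted p = 0.999).

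The libraries split the members in ways that did not follow the knockdowns. Replicate 2 of one knockdown or the other was the highest library for 5 of the 8 genes (MPO, ELANE, CTSG, RNASE2 and RNASE3), as for 28.8% of all genes tested. These libraries share only a number given in accession order, and they were the most alike pair over genes with at least 20 counts in the pair (Pearson's r of log2(CPM + 1), without TMM, 0.975, against 0.832 to 0.951 for the other 14 pairs). SUPV3L1 knockdown replicate 1 was the lowest library for MPO, ELANE, PRTN3 and AZU1, as for 10.8% of all genes tested, and PNPT1 knockdown replicate 1 for CTSG, RNASE2, RNASE3 and SRGN, as for 15.5%. The ratio of the highest to the lowest library within a group ran from 1.10-fold, for SRGN in SUPV3L1 knockdown, to 8.60-fold, for MPO in SUPV3L1 knockdown. The median within-group SD of log2 CPM was 0.79 over the 8 genes and 0.53 over all genes tested. Across the 6 libraries, Pearson's r of log2 CPM between 2 members was highest for RNASE2 and RNASE3, at 0.84, and lowest for ELANE and RNASE3, at -0.34 (28 pairs, n = 6). These r values are a description, since the libraries share 1 cell line and 1 scaling.

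**Figure D4:**
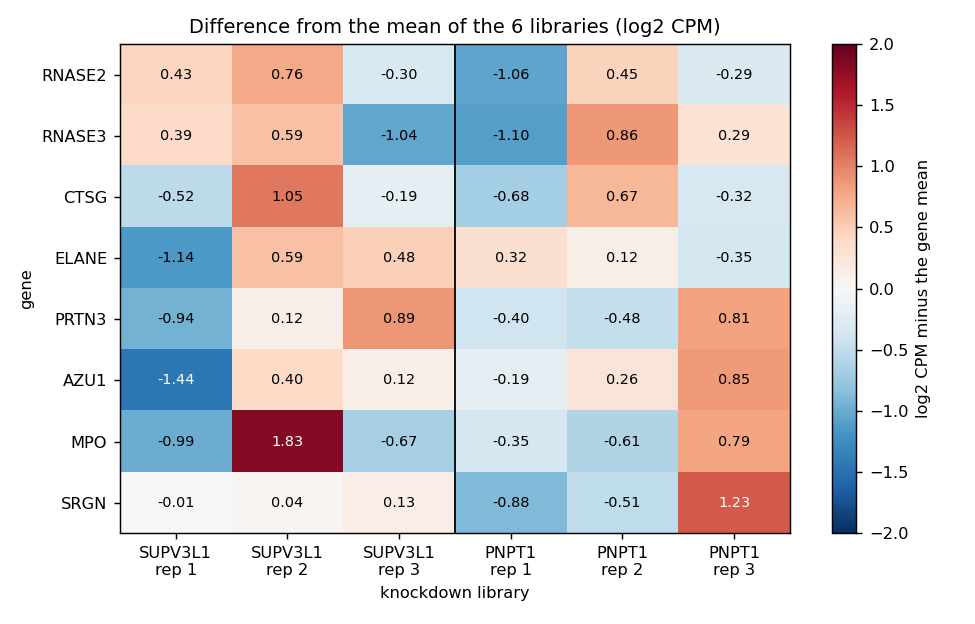
Log2 CPM of each granule gene in each library, minus the mean of the gene over the 6 libraries (red above, blue below; 3 SUPV3L1 knockdown libraries on the left). RNASE2, RNASE3, CTSG, AZU1 and ELANE are above their means in replicate 2 of both knockdowns. AZU1, ELANE, PRTN3 and MPO are furthest below in SUPV3L1 knockdown replicate 1.

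Some markers of monocytes and mature myeloid cells were high in that library, and others were not. SUPV3L1 knockdown replicate 1, lowest in AZU1, ELANE, PRTN3 and MPO, had the highest CPM of CD14, a monocyte receptor, at 67.6 CPM, against 0.754 and 1.73 CPM in the other SUPV3L1 knockdown libraries and 0.398, 0.437 and 0.768 CPM in PNPT1 knockdown (named after its values were seen). ITGAM, the integrin CD11b, was at 16.3 CPM there, against 1.32 and 3.03 in the other SUPV3L1 knockdown libraries and 2.69, 0.786 and 0.512 in PNPT1 knockdown. CSF3R, the receptor of granulocyte colony-stimulating factor, was low there, at 103 CPM, against 138 and 241 CPM in the other SUPV3L1 knockdown libraries and 205, 100.2 and 114 CPM in PNPT1 knockdown. ANPEP, the antigen CD13, had 17 counts over the 6 libraries. Of the other genes listed as markers of a myeloid line, CSF1R, ITGB2, TYROBP, LYN and FCGR3B were also highest in SUPV3L1 knockdown replicate 1. They were at 16.3, 128, 108, 75.9 and 1.32 CPM there, though LYN was at 74.7 CPM in PNPT1 knockdown replicate 1. CD33, SPI1, CEBPA, PTPRC and KIT were highest in other libraries. The 15 genes listed as markers of a myeloid line summed to 793 to 1225 CPM in SUPV3L1 knockdown and 700 to 1245 CPM in PNPT1 knockdown, and of the 10 that were tested (CD14, high in 1 library, did not pass the filter) 9 were above 0, with a median of 0.23 on the log2 scale and 0 past the test. CD34, a progenitor antigen, had 0 counts in all 6 libraries, which allows up to 0.247 to 0.768 CPM per library. The highest sum of the list was in PNPT1 knockdown replicate 1 and the next in SUPV3L1 knockdown replicate 1. PTPRC, at 607 and 537 CPM in these libraries, was the largest part of both sums. The part of these markers in the granule gene values was not tested. Of the same list, CSF1R, the receptor of macrophage colony-stimulating factor, had a log2 fold change of 2.78 ± 0.81 and CD33, a myeloid antigen, of 0.59 ± 0.30 (SE), neither past the test (adjusted p = 0.898 by the edgeR fit).

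Lymphoid, erythroid and megakaryocyte markers were rare, with 1 gene of each list past the filter on low counts. Of 14 lymphoid markers only NCAM1, the adhesion molecule CD56, passed the filter on low counts, at 40.1, 24.0 and 31.0 CPM in SUPV3L1 knockdown and 62.3, 60.7 and 78.3 CPM in PNPT1 knockdown (adjusted p = 0.898 by the edgeR fit), while CD2, CD3G, MS4A1 and GZMB had 0 counts in all libraries. Of 13 erythroid and megakaryocyte markers only ITGA2B, a platelet integrin, passed the filter, and the list summed to 2.55 to 3.90 CPM in SUPV3L1 knockdown and 0.512 to 3.84 CPM in PNPT1 knockdown. Of the eosinophil and mast cell granule genes, EPX, eosinophil peroxidase, was at 7.48, 2.74 and 6.93 CPM in SUPV3L1 knockdown, against 1.99, 2.88 and 2.05 CPM in PNPT1 knockdown. PRG3, a relative of eosinophil major basic protein, and MS4A2, a chain of the IgE receptor, had log2 fold changes of 1.38 ± 0.70 and -1.08 ± 0.85 (SE). The 10 genes of that list summed to 5.56 to 19.4 CPM in SUPV3L1 knockdown and 6.72 to 10.5 CPM in PNPT1 knockdown. That sum depends on the counting: PRG2, eosinophil major basic protein, had 31 counts over the 6 libraries but deposited FPKM of 159, 36.7 and 54.6 in SUPV3L1 knockdown and 29.7, 199 and 27.3 in PNPT1 knockdown. The 2 deposited tables thus disagree on PRG2, and the cause was not tested.

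Other azurophil granule components were read from a list of 21 genes, of which 17 were tested. Of these, 5 had a log2 fold change above 0 and 12 below, their median was -0.32, and 0 passed the test. LYZ, lysozyme, was at 1493, 344 and 1331 CPM in SUPV3L1 knockdown and 36.6, 180 and 144 CPM in PNPT1 knockdown, a log2 fold change of 3.14 ± 0.70 (SE) that DESeq2 called (adjusted p = 0.00170) and edgeR did not (adjusted p = 0.898). The LYZ groups did not overlap, unlike those of the 8 genes described here, and the difference between LYZ and those genes was not itself tested. GUSB, the lysosomal beta-glucuronidase, was at 21.7, 23.1 and 28.7 CPM in SUPV3L1 knockdown and 33.4, 32.3 and 57.1 CPM in PNPT1 knockdown. CD63, a tetraspanin of the azurophil granule membrane, was at 30.4, 22.5 and 30.5 CPM in SUPV3L1 knockdown and 32.9, 31.6 and 82.4 CPM in PNPT1 knockdown. The groups did not overlap for either gene, as for 8.56% of all genes tested, and both had an adjusted p of 0.898 by the edgeR fit. The alpha-defensin genes, which are near-identical copies, differed between the deposited tables. DEFA1, DEFA1B and DEFA3 had 1, 0 and 11 counts over the 6 libraries, while the FPKM of DEFA1 were 8.79, 1.71 and 12.6 in SUPV3L1 knockdown and 1.29, 1.47 and 2.69 in PNPT1 knockdown. CD68, a lysosomal membrane protein, likewise had 6 counts over the 6 libraries and FPKM of 29.6, 17.5 and 57.0 in SUPV3L1 knockdown and 18.8, 15.4 and 7.98 in PNPT1 knockdown. No test on counts can speak to these genes.

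**Figure D5:**
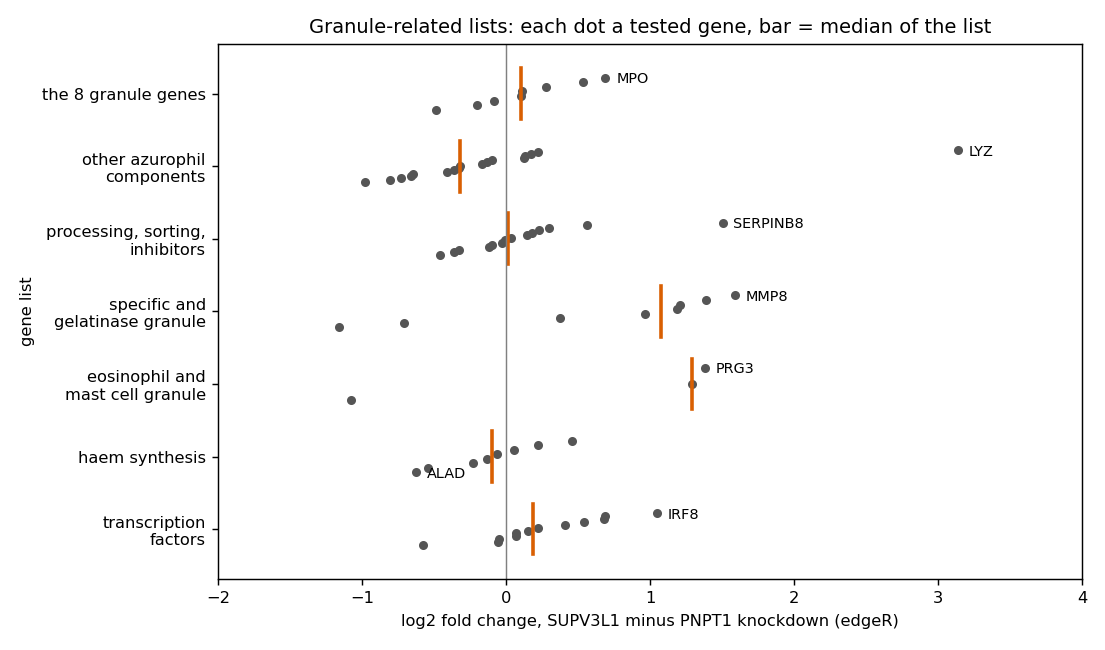
Log2 fold change, SUPV3L1 minus PNPT1 knockdown (edgeR), of each tested gene (dots) in 7 granule-related lists, with the median of each list (bars) and the gene furthest from 0 named. The 8 granule genes lie between -0.49 and 0.69, and LYZ, at 3.14, is the furthest from 0 of the genes shown.

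Genes that process, sort or inhibit azurophil proteins were tested as 14 genes, 7 with a fold change above 0 on the log2 scale and 7 below, with a median of 0.01 and 0 past the test. CTSC, the dipeptidyl peptidase that activates the granule serine proteases, was at 86.7, 80.6 and 76.1 CPM in SUPV3L1 knockdown and 112, 82.2 and 142 CPM in PNPT1 knockdown. SERPINB8, an intracellular serpin, was at 71.6, 35.6 and 48.9 CPM in SUPV3L1 knockdown and 9.06, 36.2 and 9.21 CPM in PNPT1 knockdown, with PNPT1 knockdown replicate 2 inside the SUPV3L1 knockdown range. LYST, the lysosomal trafficking regulator, was at 928, 1162 and 1081 CPM in SUPV3L1 knockdown and 864, 918 and 369 CPM in PNPT1 knockdown. Haem synthesis genes, whose product MPO needs, had 3 of 8 above 0, a median of -0.10 and 0 past the test, with ALAD and ALAS1 at log2 fold changes of -0.63 ± 0.34 and -0.54 ± 0.43 (SE).

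Genes of the specific and gelatinase granules, which form after the azurophil granules, were in part too rare to test. Of 18, 8 were tested, with a median of 1.07 on the log2 scale and 0 past the test. Of these, 6 were above 0 and 2, ORM1 and CTSS, below. Among the 6, MMP8 had 74 counts in all. ARG1 and TCN1 were highest in SUPV3L1 knockdown replicate 1 (28.2 and 14.1 CPM), and CHI3L1 in SUPV3L1 knockdown replicate 3 (125 CPM). CRISP3 and CD177 had 0 counts and LTF, lactoferrin, 9 counts in all. MMP9, gelatinase B, did not pass the filter but was at 22.1 CPM in SUPV3L1 knockdown replicate 1, against 0.377 and 2.92 CPM in the other SUPV3L1 knockdown libraries and 0.299, 0.873 and 0 CPM in PNPT1 knockdown. ORM1, orosomucoid, which has a near-identical neighbour, was at 185, 189 and 315 CPM in SUPV3L1 knockdown and 547, 284 and 711 CPM in PNPT1 knockdown. CTSS, cathepsin S, was at 33.9, 27.4 and 40.2 CPM in SUPV3L1 knockdown and 67.0, 50.5 and 48.6 CPM in PNPT1 knockdown, and MMP25, a membrane metalloproteinase, at a log2 fold change of 1.21 ± 0.56 (SE). Other genes of the RNase A family were rare: of 9 listed, RNASET2 (which belongs to another RNase family) and ANG, angiogenin, were tested, at log2 fold changes of -0.20 ± 0.31 and -0.12 ± 0.86 (SE), and RNASE7, RNASE8 and RNASE13 had 0 counts.

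The listed transcription factors known to act on azurophil granule genes were present, except LEF1, which had 0 counts in all 6 libraries. Of 13 listed, 12 were tested, 9 above 0 and 3 below on the log2 scale, with a median of 0.19 and 0 past the test. IRF8, a factor of the monocyte branch, was at 96.9, 94.0 and 91.0 CPM in SUPV3L1 knockdown and 46.8, 55.7 and 33.5 CPM in PNPT1 knockdown, a log2 fold change of 1.05 ± 0.30 (SE). SPI1, which encodes PU.1, was at 75.5, 82.4 and 77.3 CPM in SUPV3L1 knockdown and 58.0, 66.9 and 52.0 CPM in PNPT1 knockdown. The groups did not overlap for these 2 factors, as for 8.56% of all genes tested, and both had an adjusted p of 0.898 by the edgeR fit. ETV6 was at 68.7, 84.6 and 34.1 CPM in SUPV3L1 knockdown and 29.2, 67.8 and 19.2 CPM in PNPT1 knockdown.

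The genes whose log2 CPM followed the members most closely over the 6 libraries were sought among 9737 genes with a mean of 50 counts or more. For MPO they included ACIN1 and NCKIPSD (Pearson's r of 0.98 and 0.94), although ACIN1 spanned only 155 to 184 CPM. For CTSG it was BAHD1 (r = 0.99), for RNASE2 CTPS1 (r = 0.99), for RNASE3 TTLL12 (r = 0.99), for AZU1 PQLC1 (r = 0.99), for SRGN CAPNS1 (r = 0.99), for PRTN3 METTL21B (r = 0.98) and for ELANE DEPTOR (r = 0.98). The number of genes above r = 0.9 was 13 for MPO, 25 for ELANE, 26 for PRTN3 and 53 for AZU1, and 134 for CTSG, 139 for RNASE3, 190 for SRGN and 323 for RNASE2.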

How the data were processed

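The authors deposited raw read counts per Ensembl gene for each library and 1 FPKM table. Per the submitters' processing notes, HISAT2 2.2.1, SAMtools 1.14, StringTie 2.1.4 and HTSeq were used with GRCh38; not given in the sources used here are the annotation release and the strand setting of the counting. Library preparation was directional per the labels' protocols. Counts were joined to gene names of the deposited FPKM table by gene identifier. The 5 summary lines of each count file, 84.0% to 92.9% of entries, stayed out of library sizes; 65.7% to 80.1% of entries were alignments that were not unique.

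The test on counts was that of edgeR 4.0.16 under R 4.3.3 (quasi-likelihood test, TMM scaling, default expression filter with a minimum count of 10 and total of 15, 13275 genes, Benjamini-Hochberg threshold 0.05). CPM are after TMM scaling. Each standard error is the size of the log2 fold change over the square root of its F, and 95% intervals use the t distribution of the fit. The fit was checked on simulated data with less spread between libraries than was typical here and larger changes than the granule genes had. That check does not speak to differences as small as theirs. Alternatives were DESeq2 1.42.0, other scalings and filters, limma 3.58.1 on log2(FPKM + 0.1) and log2(FPKM + 1), and each library left out. Positions come from GENCODE 29, which holds 57055 of the 60675 identifiers.

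The members and the gene lists were chosen with earlier results of these data known, so no list was tested. Named genes are the members, the targeted genes, LYZ, the 3 tested genes with the smallest p of each list, and the nearest patterns, of which some are not reported here; others named are extremes or examples chosen after their values were seen. The 2 groups follow the genotype label, and replicate numbers follow accession order.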

Additional observations from a re-analysis of the deposited data

How the results depend on the processing

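AZU1 and RNASE2 kept their sign under every alternative run, and no member passed an adjusted threshold in any. Signs that turned were MPO (-0.97), ELANE (-0.19) and CTSG (-0.36) without SUPV3L1 knockdown replicate 2; ELANE (-0.0949), PRTN3 (-0.41) and RNASE3 (0.28) without SUPV3L1 knockdown replicate 3; PRTN3 without PNPT1 knockdown replicate 1 (-0.0988) or 2 (-0.12); RNASE3 without PNPT1 knockdown replicate 2 (0.43); and ELANE (-0.0732) and SRGN (0.73) without PNPT1 knockdown replicate 3. On deposited FPKM, RNASE3 was at 0.0791, SRGN at 0.19 and MPO at 0.11 with a pseudocount of 0.1, and RNASE3 at 0.0739, SRGN at 0.19 and MPO at 0.15 with a pseudocount of 1 (MPO was at 0.69 on counts); the median of all genes was then 0.17 and 0.0664. With 1 library left out, log2 fold changes ran from -0.97 to 1.23 for MPO, -0.19 to 0.47 for ELANE, -0.41 to 0.63 for PRTN3, -0.36 to 0.76 for CTSG, -0.49 to 0.43 for RNASE3 and -0.56 to 0.73 for SRGN, and the median of the 8 genes from -0.28 to 0.46. Over all genes, 0 passed in edgeR, 18 in DESeq2, 187 without the expression filter and 0 to 1 with a library left out; the cause was not tested. Where each library of 1 knockdown had to hold 50 counts, MPO and RNASE3 were not tested. No paired analysis was possible because the labels give no replicate numbers. MPO, at 10 to 75 counts, is the gene most limited by depth.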

Other observations

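CEBPE, a factor of granulocyte and eosinophil maturation, was at 18.1, 17.9 and 3.03 CPM in SUPV3L1 knockdown, against 2.59, 18.4 and 2.82 CPM in PNPT1 knockdown. The 3 high libraries were the ones in which RNASE2 exceeded 100 CPM. PRSS57, the granule protease NSP4, was at 7.32, 43.8 and 4.33 CPM in SUPV3L1 knockdown, against 6.37, 54.8 and 48.9 CPM in PNPT1 knockdown, and so was high in replicate 2 of both knockdowns, as CTSG was, and in PNPT1 knockdown replicate 3, where CTSG was not. Both genes were picked after their values were seen, and no relation was tested.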
